A study of Mus musculus with 8 samples.

Results

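The Bcl2 family of apoptosis regulators was examined in STHdh striatal cells, a mouse line immortalized from the embryonic striatum, after transfection with Bcl11b. Its 10 members were Bcl2, Bcl2l1, Mcl1, Bax, Bak1, Bcl2l11, Bid, Bad, Bbc3 and Pmaip1, chosen by gene symbol. Every probe carrying one of these symbols was taken, which gave 26 of the 25697 probes on the Illumina MouseRef-8 v2 array and 10 of its 18120 gene symbols. The cells were the wild-type form of the line, which exists beside a form with a Huntington's disease allele. One group of 4 arrays came from cells transfected with Bcl11b, and the other group of 4 arrays came from cells transfected with the empty plasmid pcDNA3.1. RNA was taken 2 days after transfection. The paper names 4 different sets of transfected cells and does not say whether a set held both plasmids. The labels name no further treatment, and they call the pcDNA3.1 group wild-type.

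Each probe has 1 deposited signal per array, an average over its beads less the background. Its detection p-value compares it with control beads that match no transcript, and a probe was called detected on an array where this was under 0.01. Before normalization the pcDNA3.1 arrays were brighter, with a median signal of 31.6 to 53.9 against 20.1 to 30.2 on the Bcl11b arrays, while 10121 to 10784 and 10342 to 10644 probes were detected. The only Bcl11b probe was detected on 0 of 8 arrays, and the level of the transfected gene is thus not shown by these data. None of 6 striatal projection neuron markers on the array was detected. Among these are Ppp1r1b and Rgs9, which the paper found expressed in this line by PCR. The paper also lists Rgs9, and Bcl11b itself, among striatal-enriched genes changed on its arrays at an unadjusted limit of 0.05. The progenitor markers Nes, Sox2 and Vim were detected on every array, and Pax6, the last of the 4 in that list, on none. Stmn2, but no other of 4 pan-neuronal markers, was detected on every array. The mesenchymal marker Col1a1 was detected on every array too, Col3a1 on some, and Col1a2 and Thy1 on none. Of the 4 immune markers, Cd68 alone was detected, on 2 Bcl11b arrays, and the summed immune marker signal was 29.1 to 45.9 in pcDNA3.1 and 62.5 to 120 in Bcl11b cells. Ptprc, Aif1 and Itgam, which define immune cells, were detected on no array. The part of brightness and of this marker in the results below was not tested.

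Bcl2 family proteins decide whether the outer mitochondrial membrane is opened, the step that commits a cell to the intrinsic pathway of apoptosis. Bax and Bak are the effectors that form the pore. Bcl2, Bcl-xL (the product of Bcl2l1) and Mcl1 hold them in check, and the BH3-only proteins Bim (Bcl2l11), Bid, Bad, Puma (Bbc3) and Noxa (Pmaip1) carry stress signals that neutralize the inhibitors or activate the effectors. Bcl-xL is a main survival factor of mature neurons, and Noxa binds Mcl1 in preference to the other inhibitors.

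All 10 genes had a probe detected on all 8 arrays. Of the 26 probes, 15 were detected on all arrays, 5 on some and 6 on none. Mean normalized signals were higher in Bcl11b-transfected cells for 10 of the 20 detected probes and lower for the other 10. After quantile normalization, with lower values raised to 1, log2 signals were compared with limma over all probes. A probe is said to rise or fall here where its unadjusted p-value was under 0.05 and its log2 change was at least 0.32 in size, the limits of the study's methods. By this rule Pmaip1 rose, and Mcl1 and 1 of 8 Bcl2 probes fell. These 3 probes were 11.5% of the family's probes, beside 9.02% of all probes on the array (3.2% higher and 5.81% lower). Among detected probes the share was 15% in the family and 14.8% on the whole array, where 4.32% rose and 10.5% fell. None of the family's probes reached an adjusted p-value under 0.10 (limma, Benjamini-Hochberg adjustment over all probes), a limit that 0.981% of all probes and 1.67% of detected probes passed, and 3 family probes had an unadjusted p-value under 0.05. The smallest adjusted p-value in the family was 0.261. The share of called probes in the family was therefore close to that of the array as a whole.

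The median log2 change was -0.01 over the detected family probes, 6 of which were Bcl2 probes, against -0.016 for all detected probes. With the brightest probe of each gene it was 0.21 in the family and -0.046 over all genes detected. By role, 3 of the 10 detected probes of the 3 anti-apoptotic genes were higher and 7 were lower, and the 9 of them detected in both groups had a median change of -0.12 (from -0.45 to 0.67). The effectors Bax and Bak1, with 1 probe each, were both higher on average, by a median of 0.80, and neither passed the test. Of the 8 detected BH3-only probes 5 were higher and 3 were lower with 1 call, and the 7 detected in both groups had a median of 0.027. Standard errors of the log2 change were 0.12 to 0.47 in the family (median 0.27), and their median over all detected probes was 0.20.

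**Figure D1:**
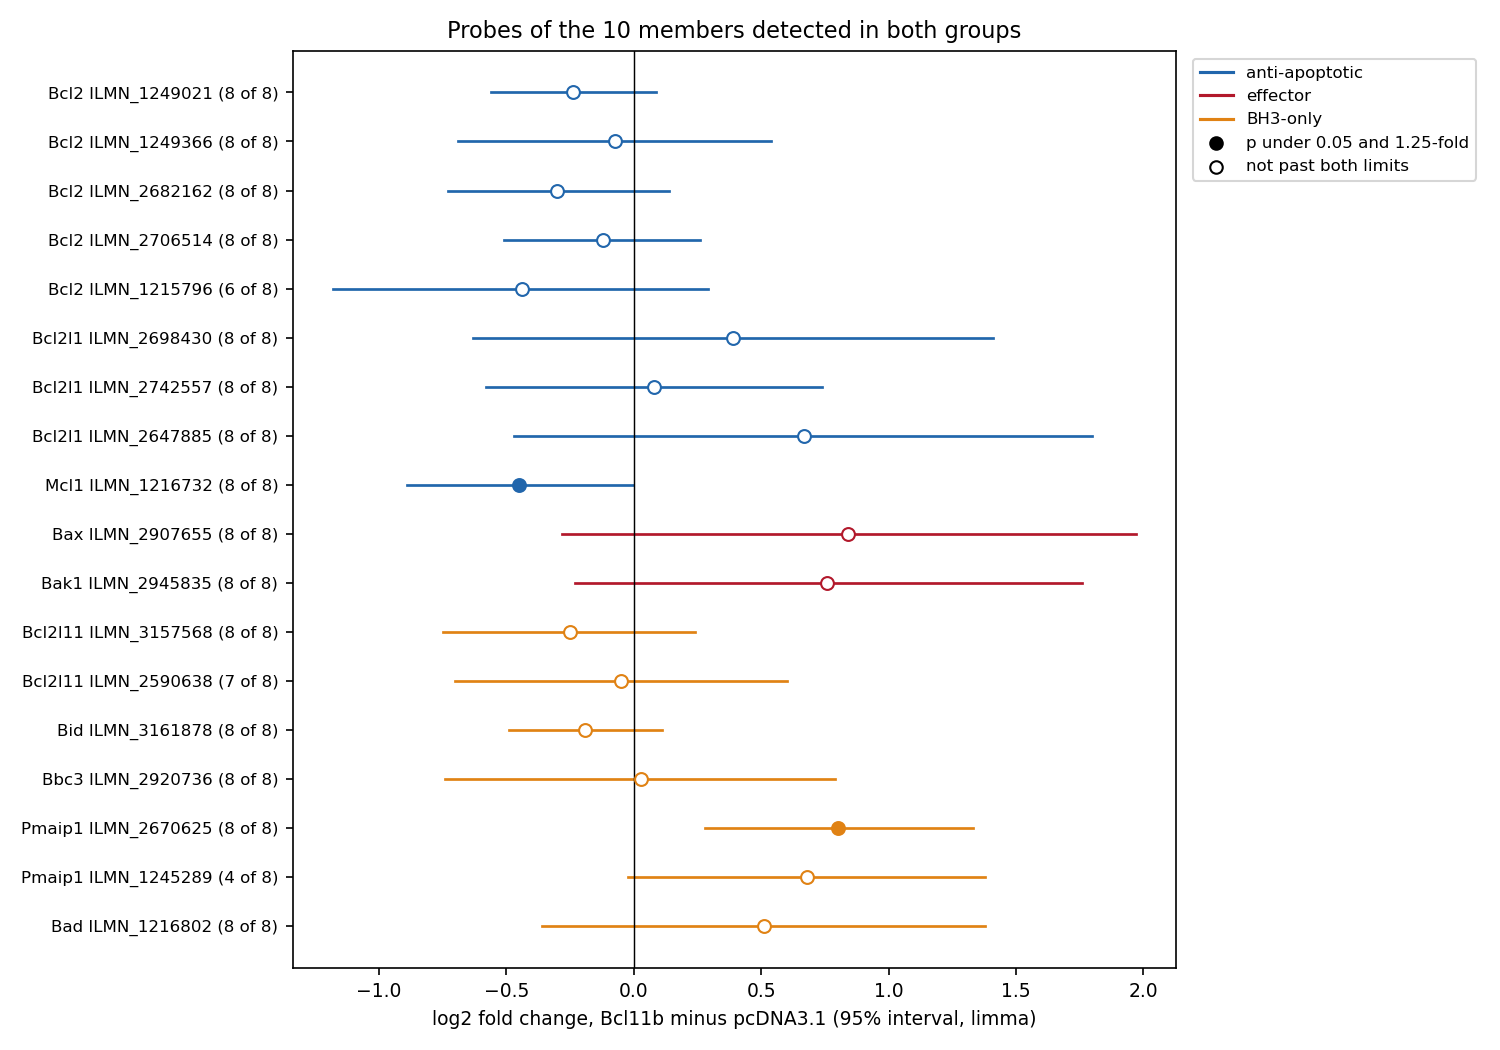
Log2 fold change (Bcl11b minus pcDNA3.1, x axis) of the 18 probes of the family detected in both groups, with the 95% interval from limma, coloured by role; the number of arrays of 8 on which a probe was detected stands beside its name. Filled symbols mark Pmaip1 at 0.80 and Mcl1 at -0.45, the 2 of these probes past both limits; the intervals of the other 16 probes include 0.

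Promoter sequence is shown for Mcl1 and Bcl2, the anti-apoptotic genes with a probe that fell, and for Bax, the effector that varied in the opposite sense to Mcl1 over the arrays. Each is the window of 250 bases before the annotated start, 5′ to 3′ on the gene's strand, from RefSeq (GRCm38.p6), and capitals mark the motifs searched, on either strand. The study took ACCACA as a candidate Bcl11b motif, and likewise the motif TGCTTG and the motif AGTGCT. For regions at the 5′ end of genes it added the motif GGATCA and a motif searched here as AGAGTG and as its other spelling AGTGTG. The E-box CACGTG was searched as well, with the cAMP response element TGACGTCA, with the AP-1 site TGACTCA and with the GC box GGGCGG.
Mcl1 promoter (chr3:95658471-95658720, plus strand): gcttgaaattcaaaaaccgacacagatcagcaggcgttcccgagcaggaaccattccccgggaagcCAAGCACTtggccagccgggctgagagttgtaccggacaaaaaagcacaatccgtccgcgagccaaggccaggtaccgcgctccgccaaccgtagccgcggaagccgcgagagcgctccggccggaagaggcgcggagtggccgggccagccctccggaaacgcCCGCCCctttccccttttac
Bcl2 promoter (chr1:106714291-106714540, minus strand): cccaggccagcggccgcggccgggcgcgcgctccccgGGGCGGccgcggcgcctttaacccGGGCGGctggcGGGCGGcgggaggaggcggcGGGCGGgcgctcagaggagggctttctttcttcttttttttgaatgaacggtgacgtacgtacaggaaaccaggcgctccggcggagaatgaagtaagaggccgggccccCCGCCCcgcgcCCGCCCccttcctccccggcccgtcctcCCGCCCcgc
Bax promoter (chr7:45466899-45467148, minus strand): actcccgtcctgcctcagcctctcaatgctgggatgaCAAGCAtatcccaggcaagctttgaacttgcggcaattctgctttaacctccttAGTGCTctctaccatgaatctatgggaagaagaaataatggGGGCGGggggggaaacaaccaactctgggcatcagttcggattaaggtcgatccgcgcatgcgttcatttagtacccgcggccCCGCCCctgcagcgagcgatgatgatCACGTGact

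The Mcl1 window held TGCTTG 184 bases before the start, and this match overlapped an AGTGCT at 182, so that they are not independent. It also held a GC box at 20. The Bax window held TGCTTG at 213, AGTGCT at 159, a CACGTG at 9 and GC boxes at 118 and 35 bases before the start. The Bcl2 window held 7 GC boxes and none of the other motifs searched. RefSeq promoters were matched for 9 of the 10 genes, with 15 promoter entries in all, and Pmaip1 had none in the table used. Of these 15 entries 5 held AGTGCT, 3 held TGCTTG and 1 held ACCACA, motifs found in 12.6%, 13.7% and 14% of 32851 promoters of the same length. AGTGTG was found in 2 entries (14.3% of promoters), GGATCA in 1 (7.6%) and AGAGTG in 0 (13.6%). A GC box stood in 10 of the 15 entries and in 32.7% of all promoters, and CACGTG in 2 entries and in 6.02% of promoters. TGACGTCA (1.55% of promoters) and TGACTCA (4.46%) were found in 0 of the 15 entries. Promoter entries of 1 gene can overlap, and a match describes letters in this window only.

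Mcl1 is a short-lived inhibitor of Bax and Bak that is degraded quickly under stress. Its only probe, ILMN_1216732, had log2 normalized signals of 12.05, 12.38, 12.38 and 12.82 on pcDNA3.1 arrays 1 to 4 and 11.84, 11.98, 11.77 and 12.25 on Bcl11b arrays 1 to 4. The groups overlapped, since Bcl11b replicate 4 lay above pcDNA3.1 replicate 1. The mean was 12.41 ± 0.32 (SD, n = 4) in pcDNA3.1 and 11.96 ± 0.21 (SD, n = 4) in Bcl11b cells. Mcl1 thus fell by 0.45 on the log2 scale, 1.36-fold (SE 0.18, 95% interval -0.89 to -0.0015, limma p-value 0.0494, adjusted 0.478). The call stood at the edge of the limit. It was lost without any one of pcDNA3.1 replicates 2, 3 and 4 or of Bcl11b replicates 1, 2 and 3, with limma p-values of 0.0855 to 0.116, and with division by the array median in place of quantile normalization, where the change was -0.27 (limma p-value 0.127).

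Bcl2, the founding inhibitor of the family, had 8 probes. On the brightest of them, ILMN_1249021, the signals were 8.22, 7.83, 7.95 and 8.07 in pcDNA3.1 and 7.87, 7.98, 7.80 and 7.47 in Bcl11b cells. The groups overlapped and the log2 change was -0.24 (SE 0.13, limma p-value 0.126, adjusted 0.664). ILMN_2597567 gave 6.58, 6.06, 6.34 and 6.38 in pcDNA3.1 and 5.84, 5.90, 5.64 and 4.81 in Bcl11b cells. The groups did not overlap here. This probe fell (limma p-value 0.0219, adjusted 0.362), but it was detected on only 2 pcDNA3.1 arrays and on no Bcl11b array, at signals as dim as the dimmest detected probes, and no fold change is given for it. Its call was lost without pcDNA3.1 replicate 1 (limma p-value 0.057) and without pcDNA3.1 replicate 4 (limma p-value 0.0508). The 4 other detected Bcl2 probes had log2 changes of -0.074, -0.12, -0.30 and -0.44, none past the test. All 6 detected Bcl2 probes were therefore lower on average, and as probes of 1 gene on the same arrays they are not separate evidence. The remaining 2 Bcl2 probes, ILMN_2597272 and ILMN_1243345, were detected on no array.

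Bcl2l1 encodes the inhibitor Bcl-xL and, by splicing, a shorter pro-apoptotic form, and the files do not say which form each of its 3 probes reads. ILMN_2698430 had signals of 8.88, 10.54, 9.11 and 9.27 in pcDNA3.1 and 9.49, 9.54, 9.85 and 10.49 in Bcl11b cells. ILMN_2647885 had 6.78, 8.56, 7.10 and 6.88 in pcDNA3.1 and 7.51, 7.67, 8.21 and 8.59 in Bcl11b cells. On both probes pcDNA3.1 replicate 2 stood well above the other pcDNA3.1 arrays. The log2 changes were 0.39 (SE 0.42) and 0.67 (SE 0.47), with limma p-values of 0.388 and 0.203. Without pcDNA3.1 replicate 2 they were 0.76 (limma p-value 0.0381) and 1.08 (limma p-value 0.0127). That array was singled out by these same values, so the smaller p-values are no separate evidence. With any other single array left out the changes were 0.18 to 0.51 and 0.47 to 0.83, none past the test. The last probe, ILMN_2742557, changed by 0.078 (SE 0.27).

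**Figure D2:**
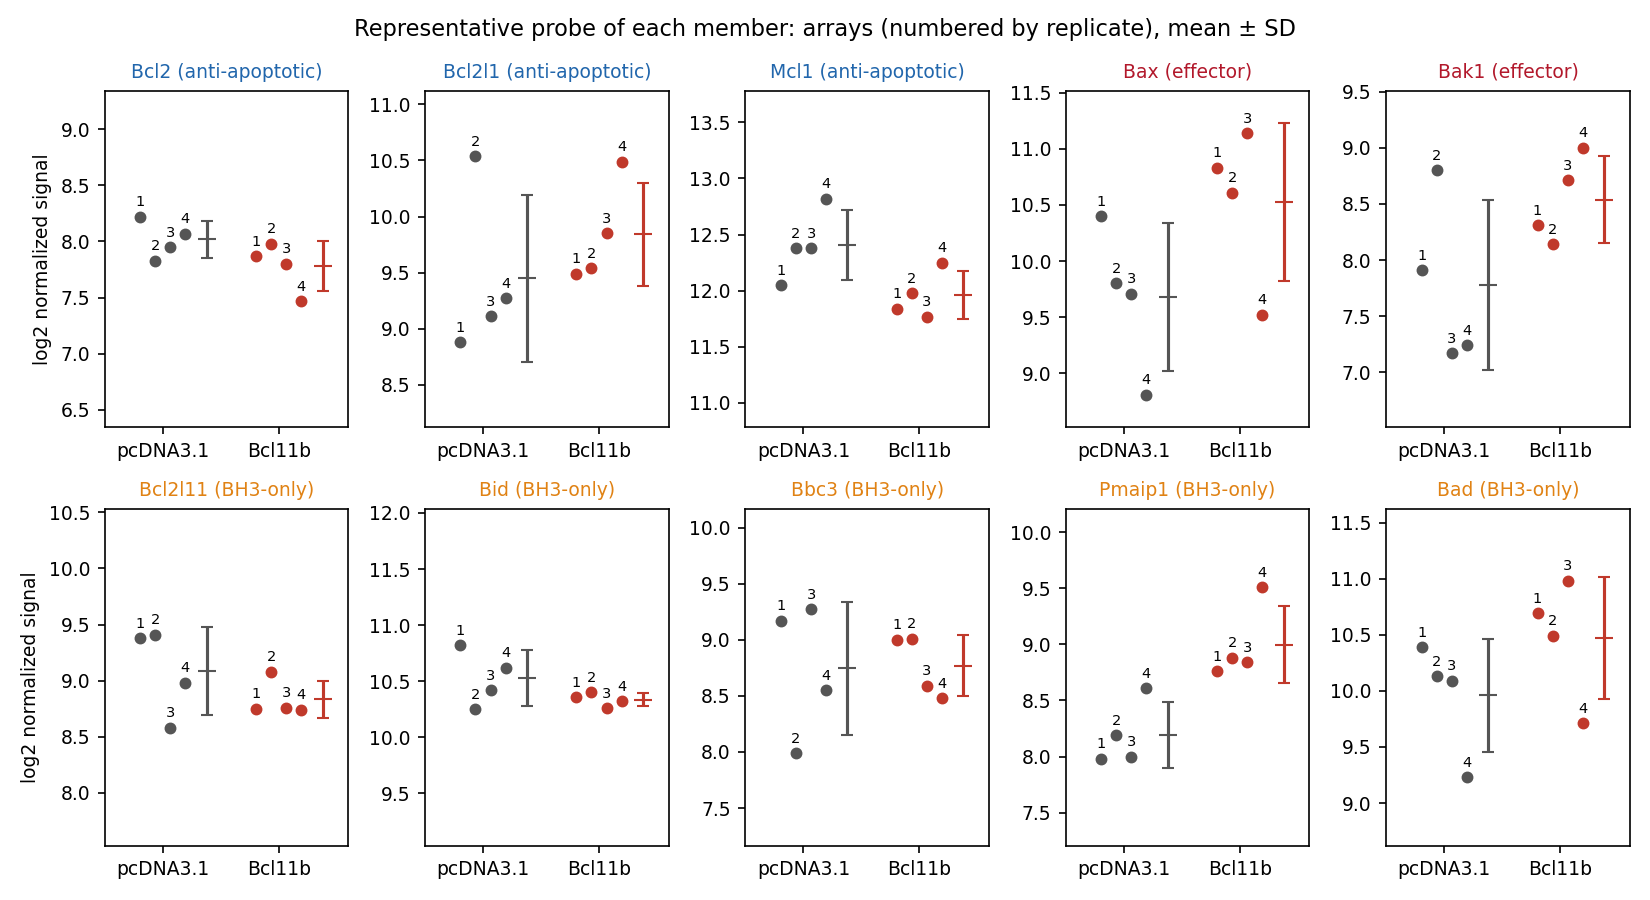
Log2 normalized signal (y axis, each panel spanning its own range) of the brightest probe of each member on the 4 pcDNA3.1 and 4 Bcl11b arrays, numbered by replicate, with mean ± SD beside the points. Pmaip1 is the only one of these 10 probes whose groups do not overlap; pcDNA3.1 replicate 2 stands high for Bcl2l1 and Bak1, and both replicate 4 arrays stand low for Bax and Bad.

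The pore-forming effectors had higher means in Bcl11b cells but a wide spread. Bax signals were 10.40, 9.80, 9.71 and 8.81 in pcDNA3.1 and 10.83, 10.61, 11.14 and 9.52 in Bcl11b cells. The replicate 4 array was the lowest of its group in both, and 3 of 4 Bcl11b arrays lay above every pcDNA3.1 array. The log2 difference was 0.84 (SE 0.47, 95% interval -0.28 to 1.97, limma p-value 0.117, adjusted 0.663). Without Bcl11b replicate 4, an array singled out by these same values, it was 1.18 (limma p-value 0.0279). Leaving out any other single array gave 0.56 to 1.08, none past the test. Array weights gave 1.19 (limma p-value 0.0164). Bak1 signals were 7.91, 8.80, 7.17 and 7.24 in pcDNA3.1 and 8.31, 8.14, 8.71 and 9.0 in Bcl11b cells. Here pcDNA3.1 replicate 2 lay within the Bcl11b range and the 3 other pcDNA3.1 arrays lay below it. The log2 difference was 0.76 (SE 0.41, 95% interval -0.23 to 1.76, limma p-value 0.112). Without pcDNA3.1 replicate 2, an array singled out by these same values, it was 1.11 (limma p-value 0.0115). With any other single array left out it was 0.56 to 0.89 and did not pass the test.

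Among the BH3-only genes, Pmaip1 was the member with the clearest difference. Its product Noxa is induced by p53 and by other stress pathways. ILMN_2670625 had signals of 7.98, 8.19, 8.0 and 8.61 in pcDNA3.1 and 8.76, 8.88, 8.84 and 9.51 in Bcl11b cells. Every Bcl11b array lay above every pcDNA3.1 array, with the replicate 4 array the highest of each group. The mean went from 8.19 ± 0.29 (SD, n = 4) to 9.0 ± 0.34 (SD, n = 4). Pmaip1 rose by 0.80 on the log2 scale, 1.75-fold (SE 0.22, 95% interval 0.28 to 1.33, limma p-value 0.00935, adjusted 0.261). It and the dim Bcl2 probe were the 2 of 20 detected family probes whose groups were apart (10%), and 10.1% of all detected probes were apart, 2.97% with Bcl11b above and 7.09% with Bcl11b below.

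The second Pmaip1 probe, ILMN_1245289, was detected on 1 pcDNA3.1 and 3 Bcl11b arrays. Its signals were 5.43, 5.94, 6.17 and 6.60 in pcDNA3.1 and 6.56, 6.66, 6.43 and 7.23 in Bcl11b cells. The log2 change was 0.68 (SE 0.29, limma p-value 0.056, adjusted 0.498), on the same side as the first probe. The call on the first probe held with each array left out in turn. It depended on normalization between arrays: the deposited signals of ILMN_2670625 ranged from 268.1 to 544.1 in pcDNA3.1 and from 259.6 to 654.6 in Bcl11b cells, and without normalization the log2 change was 0.088 (limma p-value 0.806). The median of all detected probes was then -0.68, and Pmaip1 stood 0.77 above it.

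Bad, which binds Bcl2 and Bcl-xL when it is dephosphorylated, had signals of 10.39, 10.13, 10.09 and 9.23 in pcDNA3.1 and 10.69, 10.49, 10.98 and 9.71 in Bcl11b cells. As for Bax, the replicate 4 array was the lowest of each group. The log2 difference was 0.51 (SE 0.36, limma p-value 0.202, adjusted 0.756). Bid, which links death receptors to mitochondria, had signals of 10.82, 10.25, 10.42 and 10.62 in pcDNA3.1 and 10.36, 10.40, 10.26 and 10.32 in Bcl11b cells on ILMN_3161878. The Bcl11b arrays lay within the pcDNA3.1 range, with a log2 difference of -0.19 and the smallest standard error of the family's detected probes, 0.12 (limma p-value 0.17). Its second probe, ILMN_2757287, was detected on no array.

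Bcl2l11 encodes Bim, which activates Bax and binds all inhibitors. ILMN_3157568 had signals of 9.38, 9.41, 8.58 and 8.98 in pcDNA3.1 and 8.75, 9.08, 8.76 and 8.74 in Bcl11b cells. The groups overlapped, with a log2 difference of -0.25 (SE 0.21, limma p-value 0.262). Of its 3 other probes, ILMN_2590638, detected on 7 arrays, changed by -0.048 and 2 were detected on no array. Bbc3, which encodes the p53 target Puma, had signals of 9.17, 7.99, 9.27 and 8.55 in pcDNA3.1 and 9.0, 9.01, 8.59 and 8.48 in Bcl11b cells on ILMN_2920736. The difference was 0.027 (SE 0.32, 95% interval -0.74 to 0.79). ILMN_2690621 was detected on 2 Bcl11b arrays only and did not pass the test (limma p-value 0.076), and ILMN_2690620 was detected on no array.

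Some members also varied together within groups. For each of the 15 probes detected on all arrays, the deviation of every array from its group mean was taken, and the 105 pairs were compared as a description over the 8 arrays, in which the values of 1 array share its brightness. In 10 pairs Pearson's r was over 0.8 and in 10 it was under -0.8. The share of such pairs among other probes was not worked out, so these counts do not mark out the family. Over all probes detected on every array, deviations also correlated between arrays of the 2 groups, with r from -0.77 to 0.7. Of the former, 3 joined probes of 1 gene, Bcl2l1, while Bcl2 probes ran together (r 0.78 for ILMN_1249366 and ILMN_2706514) or apart (r -0.69 for ILMN_1249021 and ILMN_1249366). Bax and Bad ran together (r 0.99, Spearman's rho 0.95), and both ran against Mcl1 (r -0.97 for Bax and -0.95 for Bad). Mcl1 and Pmaip1 ran together within groups (r 0.89, rho 0.83), although their group means moved in opposite directions. Deviations on the replicate 4 arrays were -0.87 and -1.0 for Bax, -0.73 and -0.76 for Bad, 0.41 and 0.29 for Mcl1, and 0.42 and 0.51 for Pmaip1, in pcDNA3.1 and Bcl11b respectively. Bcl2l1 and Bak1 also ran together (r 0.82 for ILMN_2698430), with a lower rank correlation (rho 0.6). Both were highest on pcDNA3.1 replicate 2, with deviations of 1.09 and 1.02, and r leans on that array. Bbc3 ran against Bcl2l1 (r -0.90, rho -0.86).

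**Figure D3:**
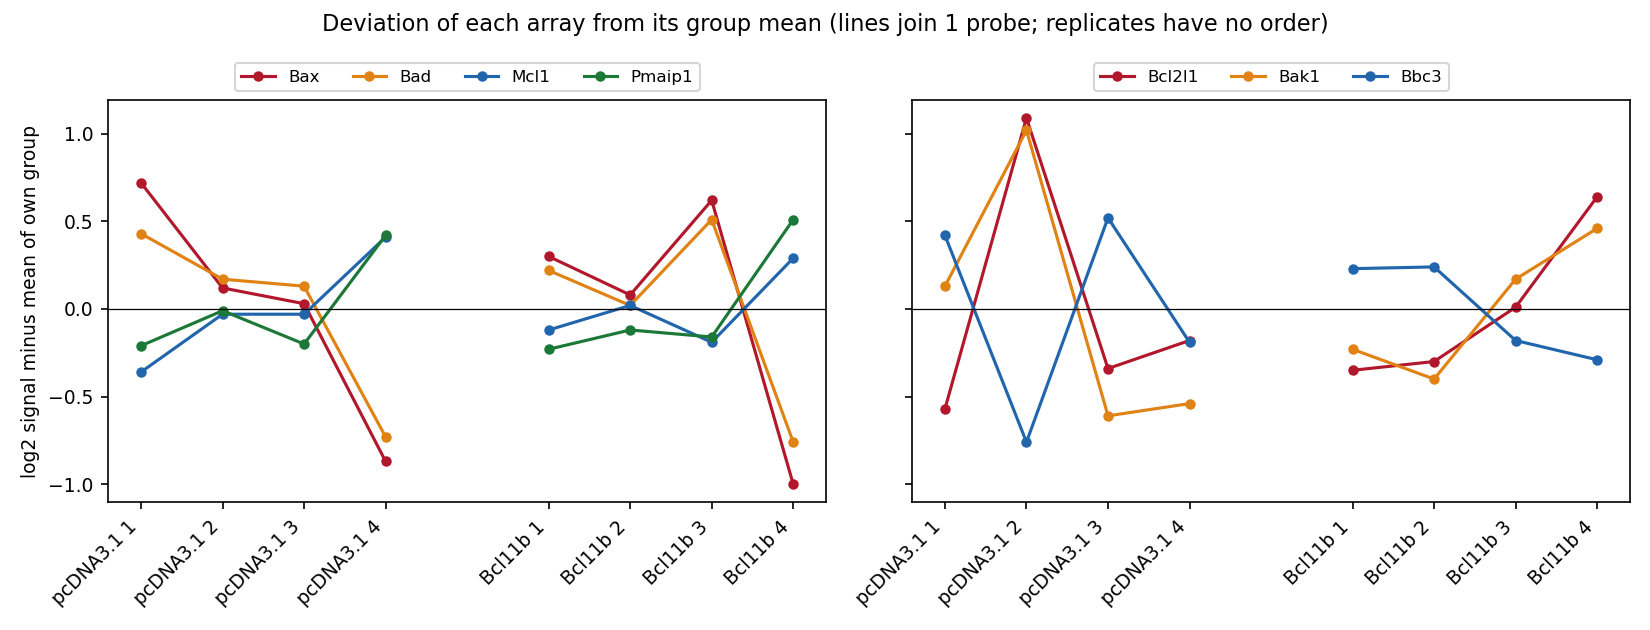
Difference of each array from the mean of its own group (log2 normalized signal, y axis) for Bax, Bad, Mcl1 and Pmaip1 (left) and for Bcl2l1, Bak1 and Bbc3 (right), by group and replicate number (x axis); lines only join the values of a probe. Bax and Bad are lowest and Mcl1 and Pmaip1 highest on replicate 4 of both groups, and Bcl2l1 and Bak1 are highest on pcDNA3.1 replicate 2.

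With both replicate 4 arrays left out, a setting chosen after these values were seen, 8 of the 26 family probes passed the same rule, 4 higher and 4 lower, beside 8.18% of all probes. Among the 4 lower, Bcl2l11 ILMN_1229255 was detected on no array. Deviations of the family's own probes led to this choice, so the count and its p-values are not a test of the family against the array. Pmaip1 ILMN_2670625 then had an adjusted p-value of 0.0824 (limma). Bax was higher by 0.90 (limma p-value 0.0209) and Bad by 0.53 (limma p-value 0.0293). With pcDNA3.1 replicate 2 left out, 5 family probes passed, among them Bak1 and a pair of Bcl2l1 probes, and calls also rose over the whole array, to 11.9% of all probes. Values of Bak1 and Bcl2l1 had likewise singled out that array. The counts in the family thus moved by over 1.5 times with the arrays that entered.

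The genes most like a member in their pattern over the 8 arrays were sought among 9360 probes detected on all of them, for the member whose brightest probe had the smallest p-value in each role. For Mcl1 they were Zcchc8 (Pearson's r 0.993) and 2810046L04Rik (r 0.992), and for Bak1 they were Lbh (r 0.986) and Trip6 (r 0.985). For Pmaip1 they were Mdm2, which encodes the ubiquitin ligase of p53 (r 0.966, rho 0.976), and Rbm15 (r 0.963). These likenesses take in the difference between the groups.

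Genes that act around the family were taken in 5 lists with 66 genes, of which 56 were on the array and 45 were detected, each by its brightest probe. Of these 45, 4 rose and 5 fell. Over the brightest detected probes of all 8557 genes, 15.8% passed the rule, 3.89% higher and 11.9% lower. In the bulk RNA of these cultures, fewer cells that express a gene and less RNA per cell cannot be told apart.

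The clearest difference was that of Fbxw7, the substrate receptor of a ubiquitin ligase that marks Mcl1 for degradation. Its signals on ILMN_2681824 were 9.88, 9.84, 9.89 and 9.79 in pcDNA3.1 and 10.33, 10.44, 10.36 and 10.41 in Bcl11b cells. The groups were apart by far more than the spread within either. Fbxw7 rose by 0.54, 1.45-fold (SE 0.033, limma p-value 1.96e-06, adjusted 0.00297), and was the only 1 of the 45 genes past the adjusted limit. The size of this p-value depended on the fit. With only probes detected on 4 or more arrays the limma p-value of Fbxw7 was 0.00102, and with a robust limma-trend fit it was 0.000231, with the change still 0.54. Without normalization between arrays its change was -0.16, above the median of -0.68 of all detected probes. Its other probes, ILMN_2844699 and ILMN_2676431, were detected on no array. It was the only call among 10 detected partners and modifiers, whose median change was 0.0069.

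In the death receptor arm, which starts apoptosis from the cell surface, 2 of 7 detected genes rose and 1 fell, with a median change of 0.26. Fas, the receptor for Fas ligand, had signals of 6.89, 5.76, 6.53 and 6.32 in pcDNA3.1 and 8.13, 7.98, 7.91 and 7.17 in Bcl11b cells. The groups were apart, and Fas rose by 1.42, 2.68-fold (SE 0.31, limma p-value 0.00302, adjusted 0.175). This probe, ILMN_2902979, was detected on 3 pcDNA3.1 and 4 Bcl11b arrays. Its pcDNA3.1 mean of 6.37 was as dim as the dimmest detected probes (6.19 to 6.59), which limits the size of the fold. Without normalization between arrays the change of Fas was 0.70 and the call was lost (limma p-value 0.113). The other Fas probes, ILMN_2479290 and ILMN_2454420, were detected on no array. Tnfrsf10b, a receptor for TRAIL, rose by 1.16 on ILMN_2945095 (SE 0.32, limma p-value 0.00914, adjusted 0.259). Its 3 other detected probes changed by -0.048, -0.07 and 0.25, so the probes of this gene disagreed. Ripk1, the kinase that joins receptor complexes to survival or death signals, fell by 0.40 (limma p-value 0.0198, adjusted 0.35). This call was lost through the size of the change without pcDNA3.1 replicate 3 (-0.29). It was lost through the p-value without Bcl11b replicate 3 (-0.36, limma p-value 0.0528) and with division by the array median (limma p-value 0.0725). Without both replicate 4 arrays Fas alone of this list was called.

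Downstream of the mitochondria, 2 of 11 detected apoptosome and caspase genes fell and none rose, with a median of -0.079. Casp9, the caspase activated by the apoptosome, had signals of 9.11, 9.07, 9.73 and 9.85 in pcDNA3.1 and 8.70, 8.96, 8.75 and 8.81 in Bcl11b cells. It fell by 0.64 with groups apart (SE 0.20, limma p-value 0.0188, adjusted 0.343). Aifm1, a mitochondrial flavoprotein that can be released in cell death, fell by 0.34 (limma p-value 0.0246, adjusted 0.374) and by 0.65 on its second detected probe. The Aifm1 call was lost on leaving out any single array other than pcDNA3.1 replicate 2 or Bcl11b replicate 4 and with division by the array median (limma p-value 0.0727), and the Casp9 call without both replicate 4 arrays (limma p-value 0.0754). Casp6 was not called on its brightest probe (-0.18, limma p-value 0.0657). Its other probe, ILMN_2923864, detected on every array, fell by 0.47 with groups apart (limma p-value 0.0149, adjusted 0.316).

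Of the 8 other Bcl2 family genes that were detected, 2 fell and none rose, with a median of -0.042. Bnip3l, a mitophagy receptor, fell by 0.33 with groups apart (SE 0.095, limma p-value 0.012, adjusted 0.289), and by less than the limit without pcDNA3.1 replicate 3 or 4 or Bcl11b replicate 3 (-0.27 to -0.32) and with division by the array median (-0.24). Bmf, a BH3-only gene, fell (limma p-value 0.0358), but it was detected on 1 pcDNA3.1 array and no Bcl11b array, and no fold change is given. With single arrays left out, 0 to 4 genes of this list were called, and 0 without pcDNA3.1 replicate 4 or without Bcl11b replicate 3. Among 9 detected transcription factors known to act on family genes, with a median change of -0.023, Ddit3 rose. It encodes the stress factor Chop, and its signals were 10.37, 9.74, 9.90 and 9.33 in pcDNA3.1 and 10.88, 11.10, 11.09 and 9.88 in Bcl11b cells. The change was 0.90 (SE 0.35, limma p-value 0.0398, adjusted 0.447), and 0.75 on its second probe (limma p-value 0.121). This call was lost on leaving out any single array other than pcDNA3.1 replicate 1 or Bcl11b replicate 4. It was also lost without normalization between arrays, where the change was 0.24 (limma p-value 0.554).

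**Figure D4:**
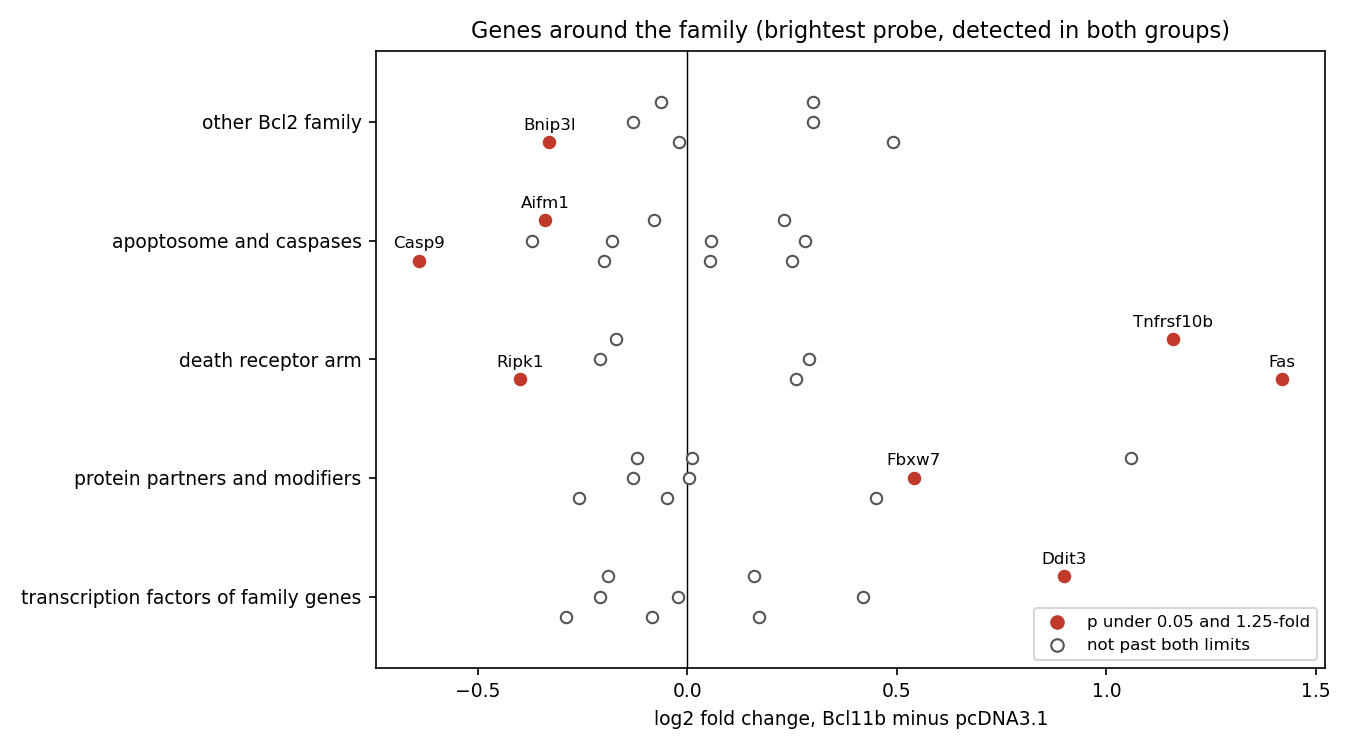
Log2 fold change (Bcl11b minus pcDNA3.1, x axis) of the 43 genes around the family detected in both groups, by list (y axis; small vertical steps only separate points). The 8 genes past both limits are filled and named, 4 of them higher and 4 lower, and the others lie between -0.37 and 0.49 apart from the dim Usp9x at 1.06.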

How the data were processed

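RNA from 8 cultures of STHdh cells was hybridized to 1 Illumina MouseRef-8 v2 array each. The authors deposited 1 intensity per probe, made with GenomeStudio after background subtraction and not normalized between arrays, each with a p-value for its detection; the genome build is not given in the sources used here. Groups and replicate numbers came from the sample titles. The intensities were quantile-normalized, values under 1 were set to 1, and log2 values of all 25697 probes were compared with limma 3.58.1 in R 4.3.3 (lmFit and eBayes, no covariate), with p-values adjusted by the Benjamini-Hochberg method. For dim probes the size of a log2 change depends on this lower limit, and precision is limited by how many arrays there were. The fit was tested on simulated data. The thresholds followed the study. The limit of 0.10 for adjusted p-values is the one in its results. The limit of 0.05 for unadjusted ones, where the log2 change was at least 0.32 in size, is from its methods.

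All probes of the 10 members were reported; from the other lists, detected genes past the unadjusted rule were named, by the brightest probe. A probe detected on no array of 1 group was to be given a bound, and no fold where that bound was under 1. Members and lists were chosen with earlier results of these data known. Motifs were searched in RefSeq promoters. Alternatives were no normalization, scaling to the median of each array, background correction with neqc, adding 16 to the signal, keeping probes detected on 4 or more arrays, blocking on the replicate number, a robust limma-trend fit, array weights, and leaving out each array, or both replicate 4 arrays.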

Additional observations from a re-analysis of the deposited data

Results flagged for a closer look

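In 40 groups of 4 arrays, a group being 1 detected family probe in 1 condition, 2 groups held an array far from the 3 others, where chance gives about 1 in 20 groups. On Bcl2l11 ILMN_3157568, Bcl11b replicate 2 had a log2 normalized signal of 9.08 and the nearest other Bcl11b array 8.76. On Pmaip1 ILMN_2670625, Bcl11b replicate 4 had 9.51 and the nearest other Bcl11b array 8.88.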

How the results depend on the processing

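Against 3 family probes called as reported, 11 were called without normalization between arrays (0 higher and 11 lower, with 27.1% of all probes called and the median of all probes at -0.49), 6 with arrayWeights (13.4% of all probes), 5 with the replicate number as a block (8.55%), 8 without both replicate 4 arrays (8.18%) and 2 to 5 with single arrays left out (6.35% to 11.9%), beside 9.02% as reported. The split of calls was 1 higher to 2 lower as reported and 2 higher to 1 lower after division by the array median. At the adjusted threshold the count of family probes was 0 as reported, 0 with any single array left out, and 1 (Pmaip1 ILMN_2670625) with the replicate block (limma adjusted p-value 0.0903) and without both replicate 4 arrays. Over 17 settings, Pmaip1 ILMN_2670625 was called in 16, with limma adjusted p-values of 0.0824 to 1, and Mcl1 was called in 9. For the lists around the family, the calls without normalization were 5 of other Bcl2 family genes, 5 of apoptosome and caspase genes, 2 of partners and 3 of transcription factors. With arrayWeights they were 4 of other Bcl2 family genes, 2 of partners and 2 of transcription factors. Division by the array median gave 2 partners and 2 transcription factors, the replicate block 2 partners, and the setting without both replicate 4 arrays 1 apoptosome and caspase gene, 1 death receptor gene, 2 partners and 2 transcription factors. With single arrays left out the ranges were 0 to 4 for other Bcl2 family genes, 1 to 3 for apoptosome and caspase genes, 2 to 4 for death receptor genes, 1 to 2 for partners and 0 to 2 for transcription factors.

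Without normalization the log2 change turned to -0.3, -0.66 and -0.071 for Bcl2l1 ILMN_2698430, ILMN_2742557 and ILMN_2647885, to -0.7 for Bbc3 ILMN_2920736, to -0.077 for Pmaip1 ILMN_1245289, to -0.17 for Bad and to -0.16 for Fbxw7, all above the median of detected probes at -0.68 except that of Bbc3. The fitted value of the dim Bbc3 ILMN_2690621, for which no fold change is given, turned as well (-0.28). With single arrays left out the log2 change crossed 0 on 4 probes, ranging from -0.26 to 0.051 for Bcl2 ILMN_1249366, from -0.19 to 0.11 for Bcl2l11 ILMN_2590638, from -0.076 to 0.32 for Bcl2l1 ILMN_2742557 (-0.2 without both replicate 4 arrays) and from -0.23 to 0.2 for Bbc3 ILMN_2920736. The cause was not tested. Same-numbered arrays of the groups correlated in their deviations from the group means with r of 0.68, -0.63, 0.18 and 0.70, and not every array correlated best with its own number. With 1 negative value the numbers were not taken to pair the arrays. With the block, Bax (limma p-value 0.0183), Bad (0.0209) and Pmaip1 ILMN_1245289 (0.0218) passed, and Bcl2 ILMN_2597567 (0.053) and Ripk1 (0.0717) did not. Signal over background limits the dim probes, of which 6 of the family were detected on no array.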
